A study of Rattus norvegicus with 34 samples.

Results

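Testis gene expression was compared between rats fed any of 3 triazole fungicides at 500 ppm and control rats. The exposed set was every array at that dose that held values, 11 of the 31 arrays of the series with values: M500 (myclobutanil, 3 arrays, replicates 01, 02 and 04), P500 (propiconazole, 4) and T500 (triadimefon, 4). The 6 control arrays, Control replicates 02 to 07, came from rats fed no triazole (0 ppm). All were male Wistar Han IGS rats exposed through the diet from gestation day 6 until testis was taken on postnatal day 92, with 1 rat per array. The other 14 arrays held the higher doses of the same compounds (M2000, P2500 and T1800, named by their ppm), and 3 further samples marked by the labels as outside the final analysis were not analysed here. The labels name no litter, so p-values measure the spread between the rats within the groups of all 31 arrays, some of which may be littermates.

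Triazole fungicides block the fungal sterol demethylase CYP51, a cytochrome P450 that makes ergosterol, through a triazole nitrogen that binds the heme iron. Mammals carry the same enzyme in the cholesterol pathway, and the testis also makes sterol intermediates in germ cells and testosterone in Leydig cells through other P450 enzymes. The compounds share the triazole ring. Beside it, myclobutanil is a nitrile, triadimefon is a chlorophenoxy ketone, and in propiconazole the dichlorophenyl group sits on a dioxolane.

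Values are quantile-normalized scores. The base of their logarithm is not known, so every difference below is in score units and no fold is given, and the score of all probe sets had a median of 0.0138. The tissue markers matched the label: spermatid markers had a mean score of 3.20 to 3.42 in the control arrays and 3.29 to 3.42 in the 500 ppm arrays, and 17 of 17 measured had a mean score above 0. RNA quality was followed by the actin gap, the score of the 3′ minus the 5′ beta-actin control probe set, and a high value marks RNA or cRNA with fewer complete 5′ ends. The control mean was 1.12 ± 0.408 (SD, n = 6). Means at 500 ppm were 1.08 ± 0.455 (SD, n = 3) for M500, 1.14 ± 0.213 (SD, n = 4) for P500 and 0.79 ± 0.0748 (SD, n = 4) for T500. It exceeded 1.4 in Control 02, Control 06 and M500 04, which stand apart in many of the genes below, and in 2 arrays of the higher doses, M2000 05 and P2500 05. The alternative without the arrays of high actin gap leaves out all 5, since the fit takes its spread from all 31 arrays. By their animal numbers, all 11 exposed rats and Control 02 to 04 lay in a lower series and Control 05 to 07 in a higher one. T1800 03 to 05 also lay in the higher series, and T1800 02 and all M2000 and P2500 rats in the lower one. The T500 and T1800 means given below therefore differ in series as well as in dose. These are whole-tissue values, in which fewer cells of a type and less RNA per cell cannot be told apart.

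No probe set differed between the pooled 500 ppm arrays and control after adjustment. Of 31042 probe sets, 0 (0%) passed by limma with Benjamini-Hochberg adjustment, and the smallest adjusted p was 0.15. At an unadjusted p under 0.05 there were 1146 higher (3.69% of those tested) and 936 lower (3.02%), 2082 in all where 1552 were expected. With the scores as deposited, the same split was 1293 higher and 268 lower. The number of arrays limits the precision: the median standard error of the pooled difference was 0.027, and its 95% interval reached a median of 0.056 to either side. Within the lower animal series, with Control 02 to 04 alone, 1 probe set passed, for Acsl1. Leaving out the 5 arrays of high gap, 2 passed, for Smarcc2 and Polb, and with limma's array weights, which gave Control 02, Control 06 and M500 04 weights of 0.127, 0.163 and 0.134, the number was 290 (129 higher and 161 lower). With 1 array left out at a time, 6 passed without M500 04 (among them Smarcc2, Nifk, Kcnd2 and Gdpd1), 2 without M500 01 (Timm9 and a probe set without a symbol), 2 without Control 07 (both for Acsl1) and 0 without any other.

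Few probe sets shifted the same way under each compound taken singly. An unadjusted p under 0.05 with the same sign in M500, P500 and T500 was met by 82 probe sets for higher scores (0.264% of those tested) and 36 for lower (0.116%), 118 in all, of which 92 carried 1 gene symbol and named 91 genes. These 3 comparisons share their control arrays, so their agreement in sign is no independent support. Over all probe sets, 12701 (40.9%) had 1 sign in all 3. The size of the pooled difference ran from 0.0428 to 0.341 among the 82 (median 0.106) and from 0.0564 to 0.927 among the 36 (median 0.0958). The number 118 became 367 without the arrays of high actin gap, 338 with Control 02 to 04 alone, 243 without Control 03, 78 without M500 02 and 60 when only these 4 groups were fitted.

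Among the genes lower in all 3 compounds by this rule, Acsl1 had the largest difference. It encodes a long-chain acyl-CoA synthetase, which activates fatty acids for oxidation and lipid synthesis. Its score was 1.59, 1.45, 1.53, 1.27, 1.69 and 1.04 in Control 02 to 07, 1.07, 1.06 and 1.2 in M500, 0.98, 1.15, 0.96 and 1.22 in P500, and 1.13, 1.07, 0.95 and 1.0 in T500. Control 07 lay among the exposed arrays and the other controls above them, and all 11 exposed arrays lay below the control mean of 1.43 ± 0.24 (SD, n = 6). Control 06 and Control 02, the controls of high actin gap, were the highest. The pooled difference was -0.354 (SE 0.072, 95% interval -0.502 to -0.206, limma adjusted p = 0.15), with -0.319 in M500, -0.350 in P500 and -0.394 in T500. Both further probe sets of the gene had differences of the same sign, -0.180 (SE 0.041, limma adjusted p = 0.24) and -0.098. The difference passed with Control 02 to 04 alone (-0.450, limma adjusted p = 0.026) and without Control 07 (-0.433, limma adjusted p = 0.0099). The first of these settings keeps Control 02, of high actin gap, and the second leaves out the control that lay among the exposed arrays. Without the arrays of high actin gap the difference did not pass. It was -0.212 with array weights, the smallest size over all 28 settings, in which its limma adjusted p ran from 0.0096 to 0.74. At the higher doses the group means were 1.28 in M2000, 1.37 in P2500 and 1.02 in T1800, doses that differ between the compounds.

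The sequence before the start of Acsl1 is shown with that of Cyp51, the rat counterpart of the fungicides' target, as the leading lower gene of largest difference and the gene for which the compounds are known. Both are RefSeq sequences of the GRCr8 build, 250 bases that end where the transcript starts, printed 5′ to 3′ on the gene's strand, with Acsl1 at chr16:52532393-52532642 on the minus strand and Cyp51 at chr4:30991443-30991692 on the plus strand. Capitals mark matches on either strand to the GC box GGGCGG, the CCAAT box CCAAT, the TATA box TATAAA, the E box CACGTG, DR1 (a direct repeat of AGGTCA with 1 base between, bound by PPAR and RXR dimers), or TGACG, the core of the cAMP response element TGACGTCA, with which it overlaps.
Acsl1: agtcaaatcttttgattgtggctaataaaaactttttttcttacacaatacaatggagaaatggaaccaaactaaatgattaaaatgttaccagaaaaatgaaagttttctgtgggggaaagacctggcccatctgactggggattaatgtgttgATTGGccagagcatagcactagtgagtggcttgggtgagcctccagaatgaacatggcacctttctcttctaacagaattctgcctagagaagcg
Cyp51: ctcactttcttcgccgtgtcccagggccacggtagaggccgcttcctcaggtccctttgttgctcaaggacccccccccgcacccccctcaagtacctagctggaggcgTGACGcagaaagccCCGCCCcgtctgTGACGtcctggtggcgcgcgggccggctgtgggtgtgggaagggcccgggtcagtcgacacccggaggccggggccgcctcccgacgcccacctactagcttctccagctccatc
The Acsl1 window held 1 CCAAT box, found in 34% of the 33469 windows of this length, and none of the other letters. The Cyp51 window held 1 GC box, found in 30.5%, and 2 TGACG cores, found in 18.2%. The TATA box was in 12.9% of windows, the E box in 5.59%, the complete cAMP response element in 1.59% and the direct repeat in 0.0508%. These are matches of letters only.

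Cyp51 itself did not separate the groups. Its probe set is of the kind that can be shared by several transcripts. The score was 1.42, 1.08, 1.15, 1.08, 1.55 and 1.10 in Control, 1.18, 1.11 and 1.65 in M500, 1.18, 1.33, 1.28 and 1.54 in P500, and 1.11, 1.15, 0.98 and 1.01 in T500. The groups overlapped, and Control 02, Control 06 and M500 04, the arrays of high actin gap in these groups, were among the highest. The pooled difference was 0.007 (SE 0.099, 95% interval -0.197 to 0.210, limma adjusted p = 1), made of 0.084 in M500, 0.102 in P500 and -0.166 in T500. The pooled sign turned in several alternatives, for example to -0.022 without Control 03. Over all 28 settings the pooled difference ran from -0.049 to 0.135, and the lowest limma adjusted p was 0.4. The controls of low actin gap scored 1.08 to 1.15. All P500 arrays lay above these controls, while M500 and T500 arrays overlapped them. The T500 mean was lower than that of P500 by an amount within its interval (P500 minus T500 0.268, 95% interval -0.014 to 0.551, limma adjusted p = 0.79).

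Among the genes higher in all 3 by the same rule, the largest difference was that of Kcnd2, a voltage-gated potassium channel subunit of the A-type current. Its score was 0.07, 0.42, 0.20, 0.27, 0.09 and 0.29 in Control, 0.62, 0.53 and 0.19 in M500, 0.61, 0.58, 0.57 and 0.32 in P500, and 0.58, 0.71, 0.78 and 0.84 in T500. All T500 arrays lay above every control, while M500 04 and P500 04 lay within the control range. The lowest of these scores, 0.07 and 0.09, were those of the controls of high actin gap. The pooled difference was 0.341 (SE 0.071, 95% interval 0.195 to 0.488, limma adjusted p = 0.15), and a second, dimmer probe set differed by 0.089. The pooled difference reached 0.384 without M500 04, the exposed array of high actin gap (limma adjusted p = 0.045). Over all 28 settings it ran from 0.261 to 0.384, and its limma adjusted p from 0.004 to 0.74. T1800 had a mean of 0.597, against 0.358 in M2000 and 0.319 in P2500.

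Gdpd1 had the smallest p of the leading genes. It encodes a lysophospholipase D-type enzyme that makes lysophosphatidic acid and N-acylethanolamine lipids. Its score was 0.70, 0.81, 0.81, 0.81, 0.75 and 0.81 in Control, 0.92, 0.95 and 0.89 in M500, 0.89, 0.89, 0.87 and 1.02 in P500, and 0.87, 0.85, 0.87 and 0.85 in T500. Every exposed array lay above every control, and Control 02 and 06 were the lowest. On average the exposed arrays were higher by 0.117 (SE 0.021, 95% interval 0.073 to 0.160, limma adjusted p = 0.15), and it was 0.093 without the arrays of high actin gap. A second probe set differed by 0.074. The means at the higher doses were 0.869 in M2000, 0.874 in P2500 and 0.807 in T1800.

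**Figure D1:**
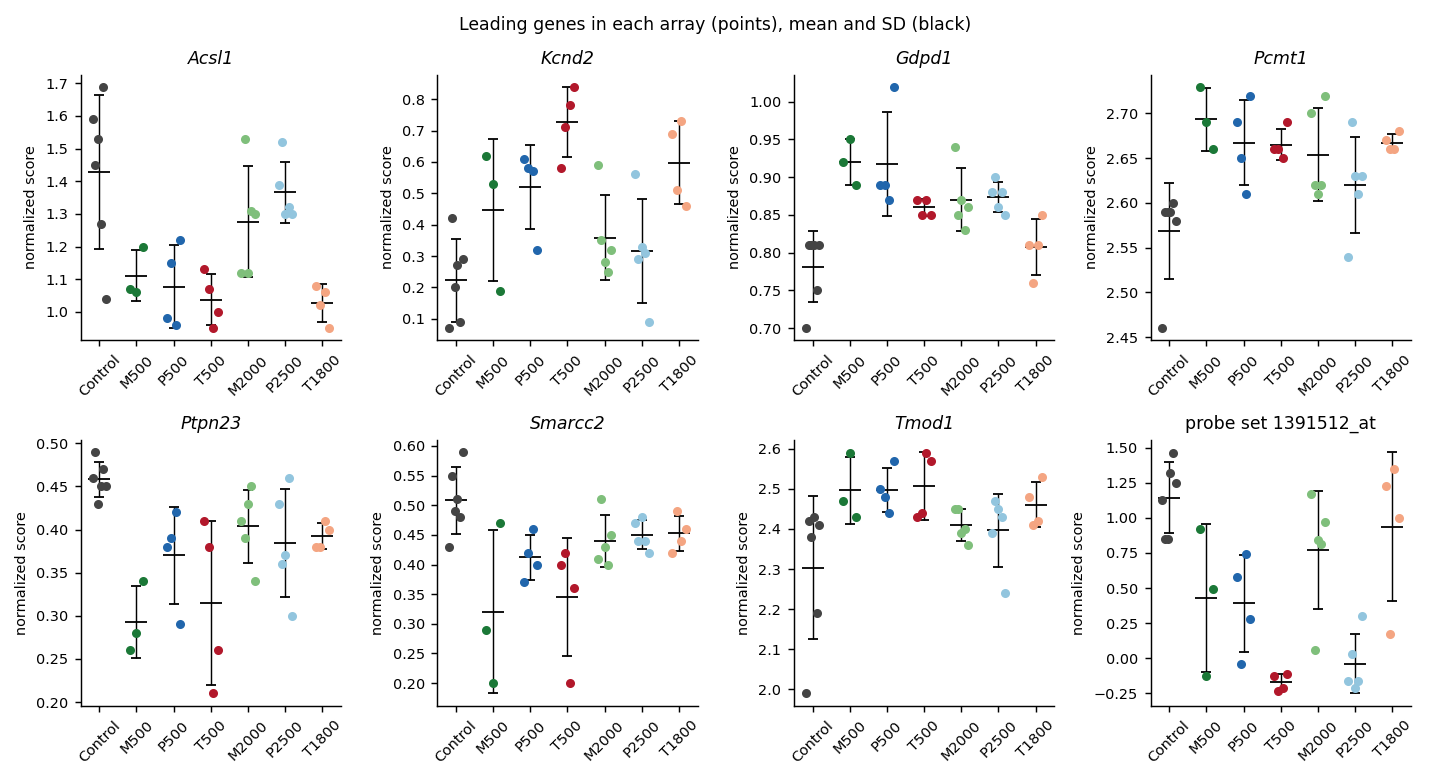
Normalized score (vertical axis, score units) of 8 probe sets in every array of the 7 groups; points are arrays, black lines the group mean and SD. Gdpd1, Pcmt1, Tmod1 and Ptpn23 have no overlap between the 11 arrays at 500 ppm and the 6 controls, while Control 07 lies among the exposed arrays for Acsl1 and M500 04 among the controls for Kcnd2.

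The other genes that led the higher side differed by 0.107 to 0.125. Ppa1, an inorganic pyrophosphatase, differed by 0.125 (SE 0.024, limma adjusted p = 0.15), from a control mean of 1.44 ± 0.038 (SD, n = 6) to 1.63 ± 0.023 (n = 3) in M500, 1.54 ± 0.072 (n = 4) in P500 and 1.54 ± 0.07 (n = 4) in T500. Taldo1, transaldolase of the pentose phosphate pathway, differed by 0.122, and Prdx4, a peroxiredoxin of the endoplasmic reticulum, by 0.125. Nifk, which binds the proliferation antigen Ki-67 in the nucleolus, differed by 0.118, with 0.125, 0.106 and 0.123 in M500, P500 and T500. Timm9, a chaperone of the mitochondrial intermembrane space, differed by 0.120, Uqcc4, an assembly factor of respiratory complex III, by 0.113, and Psma4, an alpha subunit of the proteasome core, by 0.115. In Taldo1, Nifk, Timm9, Prdx4, Uqcc4 and Psma4 the lowest array of all 17 was Control 06. Without the arrays of high actin gap, Timm9 differed by 0.077, Uqcc4 by 0.076 and Psma4 by 0.072, and Ppa1 and Nifk by 0.119 and 0.113. Limma's adjusted p for these genes ran from 0.15 to 0.24.

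Pcmt1, which repairs damaged aspartyl residues in proteins, was the gene of highest score among the leaders. Its score was 2.46, 2.59, 2.59, 2.59, 2.60 and 2.58 in Control, 2.73, 2.69 and 2.66 in M500, 2.69, 2.65, 2.61 and 2.72 in P500, and 2.66, 2.66, 2.65 and 2.69 in T500. No exposed array overlapped the controls, with P500 03 next to Control 06. They differed by 0.107 (SE 0.022, limma adjusted p = 0.15), while the second probe set of the gene differed by -0.021.

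Ptpn23 had the smallest p of the 10 lower genes and no overlap between groups. It encodes HD-PTP, a phosphatase-like partner of the ESCRT machinery that sorts receptors in endosomes. Its score was 0.46, 0.49, 0.43, 0.45, 0.47 and 0.45 in Control, 0.26, 0.28 and 0.34 in M500, 0.38, 0.39, 0.42 and 0.29 in P500, and 0.41, 0.38, 0.21 and 0.26 in T500. The controls were close together, 0.46 ± 0.021 (SD, n = 6), and the exposed arrays were lower and more spread, up to 0.42 in P500 03. Pooled, they differed by -0.134 (SE 0.027, 95% interval -0.189 to -0.079, limma adjusted p = 0.15). It was -0.138 without the arrays of high actin gap and -0.135 with Control 02 to 04 alone.

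Smarcc2, a core subunit of the SWI/SNF remodelling complex, scored 0.508 ± 0.055 (SD, n = 6) in Control, against 0.321 ± 0.14 (n = 3) for M500, 0.413 ± 0.035 (n = 4) for P500 and 0.344 ± 0.097 (n = 4) for T500. M500 02 and T500 03 were lowest, at 0.20, and M500 04 and P500 03 lay within the control range. Pooled over the compounds, Smarcc2 differed by -0.149 (SE 0.032, limma adjusted p = 0.17). It passed at -0.199 without the arrays of high actin gap (limma adjusted p = 0.039), and at -0.174 without M500 04 (limma adjusted p = 0.036), with a range of 0.0017 to 0.91 over all 28 settings. A second probe set differed by -0.139 and the remaining ones by -0.034 and 0.004. Gatad2a, a subunit of the NuRD deacetylase complex, differed by -0.122, of which -0.189 in M500, -0.027 in P500 and -0.150 in T500. Zbtb7a, a transcriptional repressor, differed by -0.072, and its other probe sets by -0.040, 0.004 and 0.004.

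The rest of the 10 lower genes had differences of -0.068 to -0.141. Rab11fip5, an effector of recycling endosomes, differed by -0.141 and Camsap3, which binds microtubule minus ends, by -0.094. Fbxo41 and Dcaf8, substrate receptors of ubiquitin ligases, differed by -0.081 and -0.107, and Lrrc71 by -0.068, its other probe set by 0.003. Fbxo41 differed by -0.043 without the arrays of high actin gap. Limma's adjusted p over the 10 lower genes ran from 0.15 to 0.27. In Gatad2a, Lrrc71, Camsap3 and Rab11fip5, 1 of the 11 exposed arrays lay above the control mean, and in the others of the 10 none did.

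**Figure D2:**
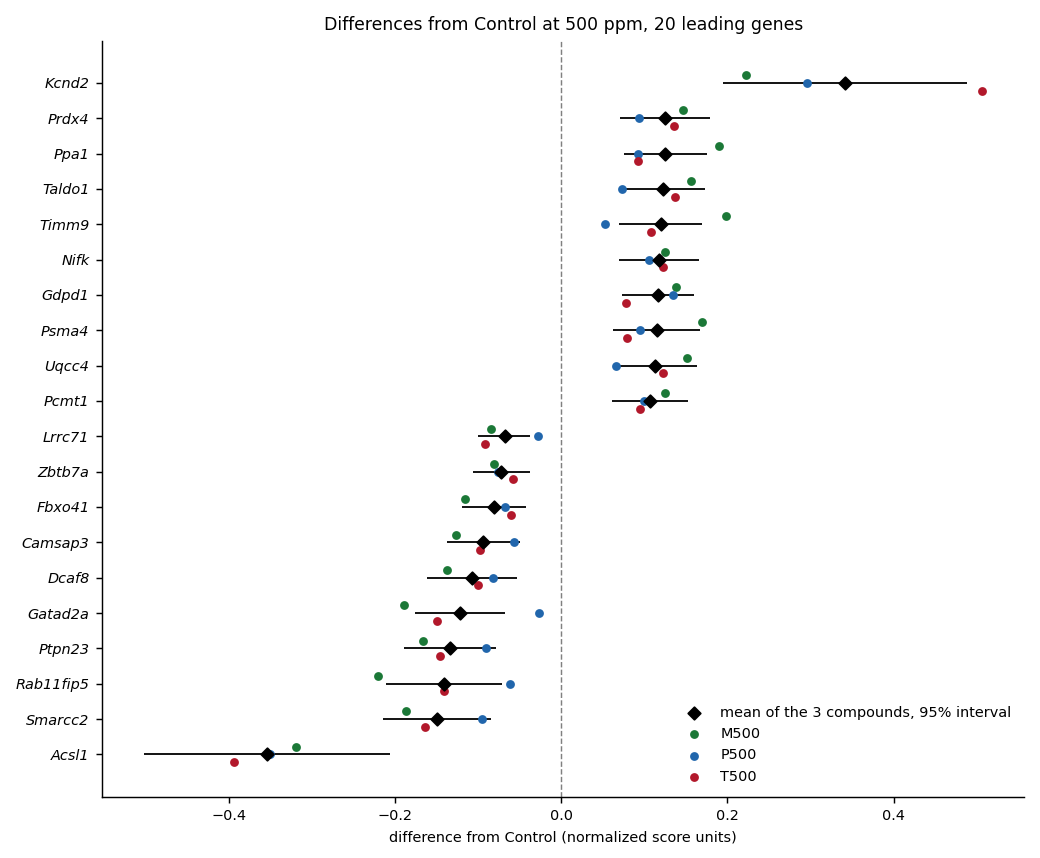
Difference from Control in score units (horizontal axis) for the 10 genes of smallest p in each direction; diamonds with lines are the mean of the 3 compounds with its 95% interval, coloured points each compound. All 3 compounds lie on 1 side of 0 for each gene, as the choice of these genes required, with P500 nearest to 0 for Timm9 (0.053), Gatad2a (-0.027) and Lrrc71 (-0.028).

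All 11 exposed arrays lay above all 6 controls for 6 probe sets (0.0193% of those tested) and below for 2 (0.00644%). The 6 were Gdpd1, Pcmt1, Bcat1, Tmod1, LOC102550950 and a probe set without a gene symbol, and the 2 were Ptpn23 and another without a symbol. Tmod1, tropomodulin, which caps actin filaments, scored 1.99, 2.42, 2.38, 2.43, 2.19 and 2.41 in Control and between 2.43 and 2.59 in the 11 exposed arrays. The 2 controls of high actin gap were far below the rest, and the other controls ended where the exposed arrays began. The difference of 0.198 (SE 0.05, limma adjusted p = 0.28) was 0.103 without the arrays of high actin gap. Bcat1, the cytosolic branched-chain aminotransferase, differed by 0.070 at scores below 0, and LOC102550950 by 0.061, its other probe set by -0.024. No overlap was counted for 320 probe sets without the arrays of high actin gap and for 193 with Control 02 to 04 alone, where fewer controls had to be cleared.

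The largest difference among the 118 belonged to a probe set without a gene symbol, taken up after its values were seen. Its score was 1.13, 0.85, 0.85, 1.32, 1.46 and 1.25 in Control, 0.92, -0.13 and 0.49 in M500, 0.58, -0.04, 0.74 and 0.28 in P500, and -0.13, -0.23, -0.21 and -0.11 in T500. All T500 arrays were below 0, whereas M500 01 lay within the control range. Its pooled mean differed by -0.927 (SE 0.17, limma adjusted p = 0.15). The P500 arrays all lay below the lowest control. At the higher doses the means were 0.772 in M2000, -0.0386 in P2500 and 0.939 in T1800. Triadimefon scores were thus low at 500 ppm but not at 1800 ppm, and propiconazole scores were low at both doses. For triadimefon, dose and animal series cannot be told apart, since T1800 03 to 05 lay in the higher series and all T500 rats in the lower.

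In the sterol pathway, the shared target of these fungicides, 1 of 19 measured genes had an unadjusted p under 0.05 and 0 passed adjustment, with a median pooled difference of 0.007 against -0.000 over all probe sets. The 1 was Pmvk, phosphomevalonate kinase, at 0.051 (SE 0.018, limma adjusted p = 0.52). The lists of genes here and below are described by counts beside the 3.69% higher and 3.02% lower of all probe sets.

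Steroidogenic genes of Leydig cells were higher more often than lower. Of 17 measured, 4 had an unadjusted p under 0.05, all higher, and 13 were above 0, while none passed adjustment. The median difference was 0.025, and 0.002 with Control 02 to 04 alone. Hsd11b1, which interconverts active and inactive glucocorticoid, scored 0.94, 1.19, 1.45, 1.43, 1.33 and 1.41 in Control and 1.33 to 1.63 in the exposed arrays, with Control 02 lowest. It differed by 0.215 (SE 0.06, limma adjusted p = 0.34), and by 0.128 without the arrays of high actin gap. Cyp17a1, the 17-alpha-hydroxylase and lyase of androgen synthesis, scored 1.55 ± 0.19 (SD, n = 6) in Control, against 1.77 ± 0.034 (n = 3) for M500, 1.65 ± 0.25 (n = 4) for P500 and 2.00 ± 0.12 (n = 4) for T500. Its pooled difference was 0.252 (SE 0.11, 95% interval 0.018 to 0.486, limma adjusted p = 0.69), and all T500 arrays but 1 lay above the highest control. Tspo, the mitochondrial translocator protein, differed by 0.129 (SE 0.049), with 0.166 in M500, 0.025 in P500 and 0.196 in T500, and Fdx1, the ferredoxin that supplies electrons to mitochondrial P450 enzymes, by 0.138 (SE 0.066). Without the arrays of high actin gap 2 of the 17 had an unadjusted p under 0.05, both higher. In that fit 1899 of all 31042 probe sets were higher and 1821 lower at that p.

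The differences of the other Leydig genes had intervals that held 0. Star, which carries cholesterol into mitochondria, differed by 0.112 (SE 0.1), Cyp11a1, the side-chain cleavage enzyme, by 0.050 (SE 0.09) and Hsd17b3, which makes testosterone, by 0.008 (SE 0.02). Insl3, a Leydig cell hormone, differed by 0.192 (SE 0.14), and by -0.010 without the arrays of high actin gap. For Insl3, Control 02, Control 06 and M500 04 scored 0.52, 0.46 and 0.77, and the other control and 500 ppm arrays 0.88 or more. M2000 05 and P2500 05 scored 0.78 and 0.68. Lhcgr, the receptor for luteinizing hormone, differed by 0.017, and Por, the reductase that feeds electrons to microsomal P450 enzymes, by -0.018. Cyp11a1 and Hsd17b3 changed sign with Control 02 to 04 alone (-0.013 and -0.010). The 6 Leydig cell markers, which share genes with this list, had a mean score of 0.73 to 1.01 in Control, 0.83 to 1.03 in M500, 0.68 to 1.0 in P500 and 0.91 to 1.11 in T500, and the part of cell number in the steroidogenic values was not tested.

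Fatty acid oxidation, where Acsl1 belongs, had members on both sides. Of 22 genes, 2 were higher and 2 lower at an unadjusted p under 0.05, with a median of 0.015. Acadl, the long-chain acyl-CoA dehydrogenase, scored 0.70, 1.07, 1.06, 0.99, 0.68 and 0.95 in Control, 1.11, 1.23 and 1.04 in M500, 1.08, 1.05, 1.08 and 1.07 in P500, and 1.15, 1.15, 1.21 and 1.29 in T500. Control 02 and 06 were far below all others, and the exposed arrays began at 1.04, below the highest control. The difference was 0.222 (SE 0.054, limma adjusted p = 0.27), and 0.127 without the arrays of high actin gap. Hadha, a subunit of the mitochondrial trifunctional protein, differed by -0.128 (SE 0.042), and by -0.053 without those arrays. Hsd17b4, the peroxisomal multifunctional enzyme, differed by 0.067 (SE 0.031).

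Genes of drug metabolism, which triazoles are known to induce in liver, showed few differences. Only 10 of the 25 measured had a mean score above 0, and low scores limit what could be seen in the others. Of 25 measured, 1 was higher at an unadjusted p under 0.05 and none lower, with a median of -0.012; the 1 was Cyp1b1, at 0.121 (SE 0.059, 0.017 with Control 02 to 04 alone). Among 19 genes of retinoic acid synthesis, binding and breakdown the 1 higher was Rdh10, the retinol dehydrogenase that starts retinoic acid synthesis, at 0.131 (SE 0.043, limma adjusted p = 0.48). Cyp26b1, the P450 that degrades retinoic acid, differed by -0.165 (SE 0.096), and by -0.010 without the arrays of high actin gap. Of 16 NRF2 and antioxidant genes, Sod1 (0.106) and Gpx4 (0.151) were higher and Gsr (-0.046) lower, and without the arrays of high actin gap Sod1 differed by 0.011 and Gpx4 by 0.036. None of 18 heat shock and immediate early genes and 0 of 8 androgen-responsive Sertoli genes had an unadjusted p under 0.05, and of 15 genes of the p53 response 1 did, Bcl2l1, a survival factor, at -0.096 (SE 0.039).

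**Figure D3:**
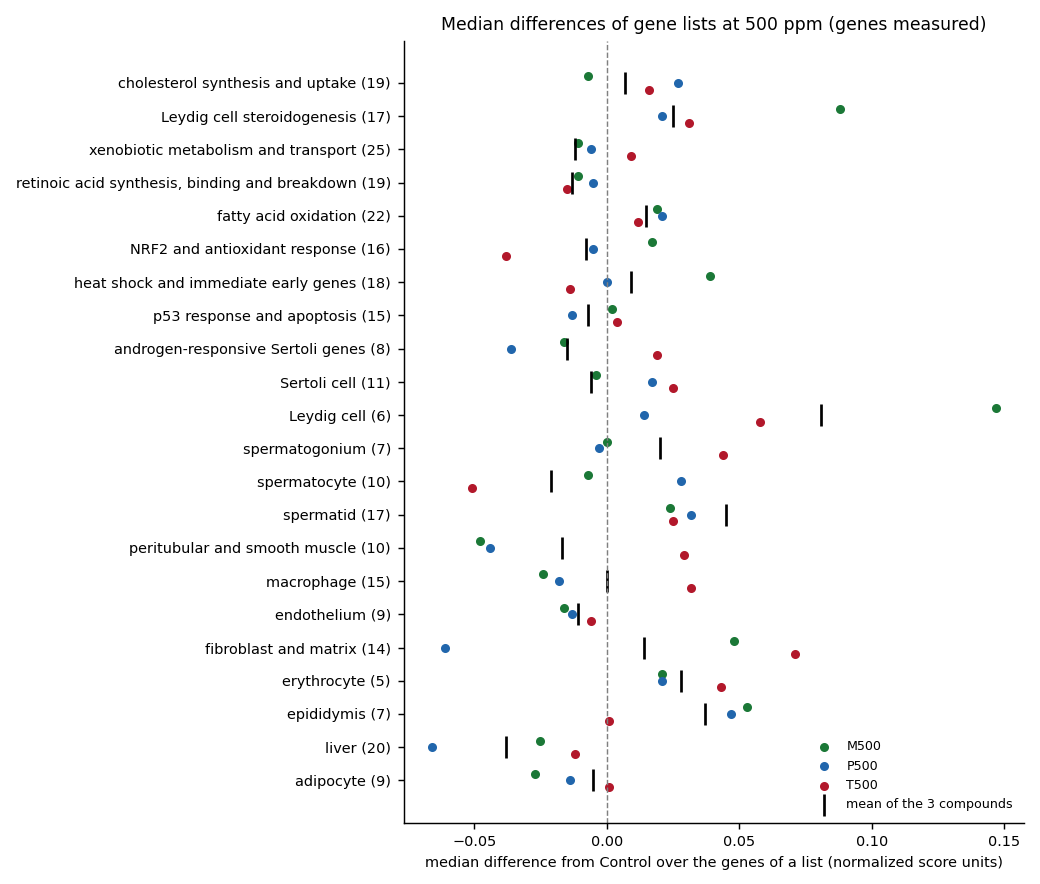
Median difference from Control over the genes of each of 22 lists (horizontal axis, score units), for each compound (points) and for the mean of the 3 (black bar); the number of genes measured stands in parentheses. The Leydig cell markers have the median farthest above 0 (0.081, with 0.147 in M500 and 0.014 in P500), and fibroblast and matrix genes differ in sign between P500 (-0.061) and the other compounds.

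Apart from the Leydig cell markers, of which 6 of 6 lay above 0 with a median of 0.081, the lists of cell type markers had medians between -0.038 and 0.045. No marker of Sertoli cells (11 genes), spermatogonia (7), spermatids (17), endothelium (9), erythrocytes (5) or adipocytes (9) had an unadjusted p under 0.05. Of 10 spermatocyte markers 1 did, Ldhc, the germ cell lactate dehydrogenase, at 0.067 (SE 0.033). The spermatid median of 0.045 was -0.000 without the arrays of high actin gap and 0.179 with the scores as deposited. Of 10 peritubular and smooth muscle markers Myh11 (-0.086) and Mylk (-0.121) were lower, and of 15 macrophage markers Cd163 (-0.080) and Csf1r (-0.054), for which Control 02 was the highest of the 17 arrays. The macrophage markers went both ways, with 7 of the 15 above 0 and a median of -0.000. Aif1 (0.205) and Lyz2 (0.101) had larger differences, at an unadjusted limma p of 0.12 and 0.059. For Myh11 and Mylk, Control 02 and Control 06 were the highest. Among 7 epididymis markers, of which 3 had a mean score above 0, Spink8 (0.189) and Aqp1 (0.063) were higher, and Aqp1 differed by 0.014 without the arrays of high actin gap. Of 20 liver genes none passed; Alb, albumin, scored 0.13 to 1.65 in Control, 0.05 to 1.62 in M500, 0.02 to 0.35 in P500 and 0.18 to 1.66 in T500, with a difference of -0.568 (SE 0.5).

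Decorin, Dcn, a proteoglycan of collagen fibrils, scored lower in the P500 arrays than in those of M500 and T500, but no pair difference passed adjustment. It scored 0.50, 0.53, 0.64, 0.77, 0.54 and 0.79 in Control, 0.90, 1.53 and 0.85 in M500, 0.69, 0.42, 0.64 and 0.45 in P500, and 1.27, 1.17, 1.42 and 0.89 in T500. All M500 and T500 arrays lay above all controls, while P500 01 and 03 lay among the controls and P500 02 and 04 below them. P500 minus T500 was -0.639 (SE 0.18, 95% interval -1.003 to -0.274, limma adjusted p = 0.56 over the 3 pairs), and M500 minus P500 was 0.540 (SE 0.19, 95% interval 0.146 to 0.934, limma adjusted p = 0.69). The pooled mean of 0.313 (SE 0.13) therefore describes no single compound. Of the 14 fibroblast and matrix genes 1 more, Fbln1, had an unadjusted p under 0.05, at -0.055.

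The 3 compounds were compared with each other at the matched 500 ppm in 3 pairs, with p adjusted over all 3 together. None of the 31042 probe sets passed in any pair: the smallest adjusted p by limma was 0.32 in each, and 2321, 2077 and 1576 had an unadjusted p under 0.05 for M500 against P500, M500 against T500 and P500 against T500. A moderated F test of any difference among the 3 also gave 0, with 2017 at an unadjusted p under 0.05 and a smallest adjusted p of 0.29. The 95% interval of a pair difference reached a median of 0.085, 0.085 and 0.078 to either side. These intervals are not adjusted for the number of probe sets, so differences larger than that could also fail to pass. Against control singly, M500, P500 and T500 each gave 0, with smallest adjusted p of 0.093, 0.96 and 0.055 and with 2793, 1042 and 2366 at an unadjusted p under 0.05. Without the arrays of high actin gap the numbers passing were 18, 198 and 2, and without M500 01 alone M500 gave 156.

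This count depended on the arrays of high actin gap. Without them, which leaves 2 arrays in M500, 4 controls and 4 arrays each in M2000 and P2500, 35 probe sets passed for M500 against P500, 3 for M500 against T500 and 113 for P500 against T500, 151 in all, although no P500 or T500 array was among those left out. The spread in this fit is estimated over all groups together. For Phc1, Muc1, Ccl21 and Hist4h4 the P500 minus T500 differences were the same to 3 decimals with and without those arrays. Leaving out M500 01 gave 10 calls over the 3 pairs.

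No gene that led a pair passed adjustment in the fit of all arrays. Mecom, a zinc finger transcription factor, scored higher in M500 than in P500, with -0.16, -0.14 and -0.13 against -0.25, -0.24, -0.23 and -0.27. The difference was 0.107 (SE 0.019, 95% interval 0.068 to 0.145, limma adjusted p = 0.32). Both groups were free of overlap with each other, at scores below 0. Atp1b4, a sodium pump beta subunit relative, differed between them by 0.135 (SE 0.026, limma adjusted p = 0.32).

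Phc1, a Polycomb group protein, was highest in P500, at 2.15 ± 0.06 (SD, n = 4), against 1.93 ± 0.052 (n = 3) in M500, 1.97 ± 0.07 (n = 4) in T500 and 2.06 ± 0.059 (n = 6) in Control. M500 minus P500 was -0.221 (SE 0.043, limma adjusted p = 0.32), but 0.192 with the scores as deposited, and P500 minus T500 was 0.185 (SE 0.04, limma adjusted p = 0.44). The latter had a limma adjusted p of 0.028 without the arrays of high actin gap and 0.94 with only the 4 groups. Kdm5b, a demethylase of histone H3 lysine 4, was lower in M500 than in P500 by -0.145 (SE 0.029, limma adjusted p = 0.36), and differed by 0.055 the other way with the scores as deposited.

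Triadimefon differed most from myclobutanil in Arhgef28 and Creg1. Arhgef28 scored 0.54, 0.86 and 0.72 in M500, 0.41, 0.49, 0.41 and 0.62 in P500, 0.26, 0.28, 0.15 and 0.27 in T500, and 0.19 to 0.39 in Control. M500 and P500 lay above all controls, and T500 within or below their range. M500 minus T500 was 0.468 (SE 0.087, 95% interval 0.289 to 0.647, limma adjusted p = 0.32), while T1800 had a mean of 0.751 and M2000 of 0.249. Creg1, a lysosomal glycoprotein, scored 0.35, 0.62 and 0.56 in M500 and 0.96, 1.10, 0.87 and 1.14 in T500, a difference of -0.508 (SE 0.1, limma adjusted p = 0.38).

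Between propiconazole and triadimefon, 3 genes led without passing. Muc1, an epithelial mucin, differed by 0.224 (SE 0.049, limma adjusted p = 0.44), Ccl21, a lymphoid chemokine, by -0.240 (SE 0.049, limma adjusted p = 0.38) and Hist4h4, a histone H4 gene, by -0.275 (SE 0.057, limma adjusted p = 0.38). Without the arrays of high actin gap, none of which lies in either group, the same differences had adjusted p of 0.0089, 0.01 and 0.041 by limma. The highest adjusted p over the settings was 0.94 for each.

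**Figure D4:**
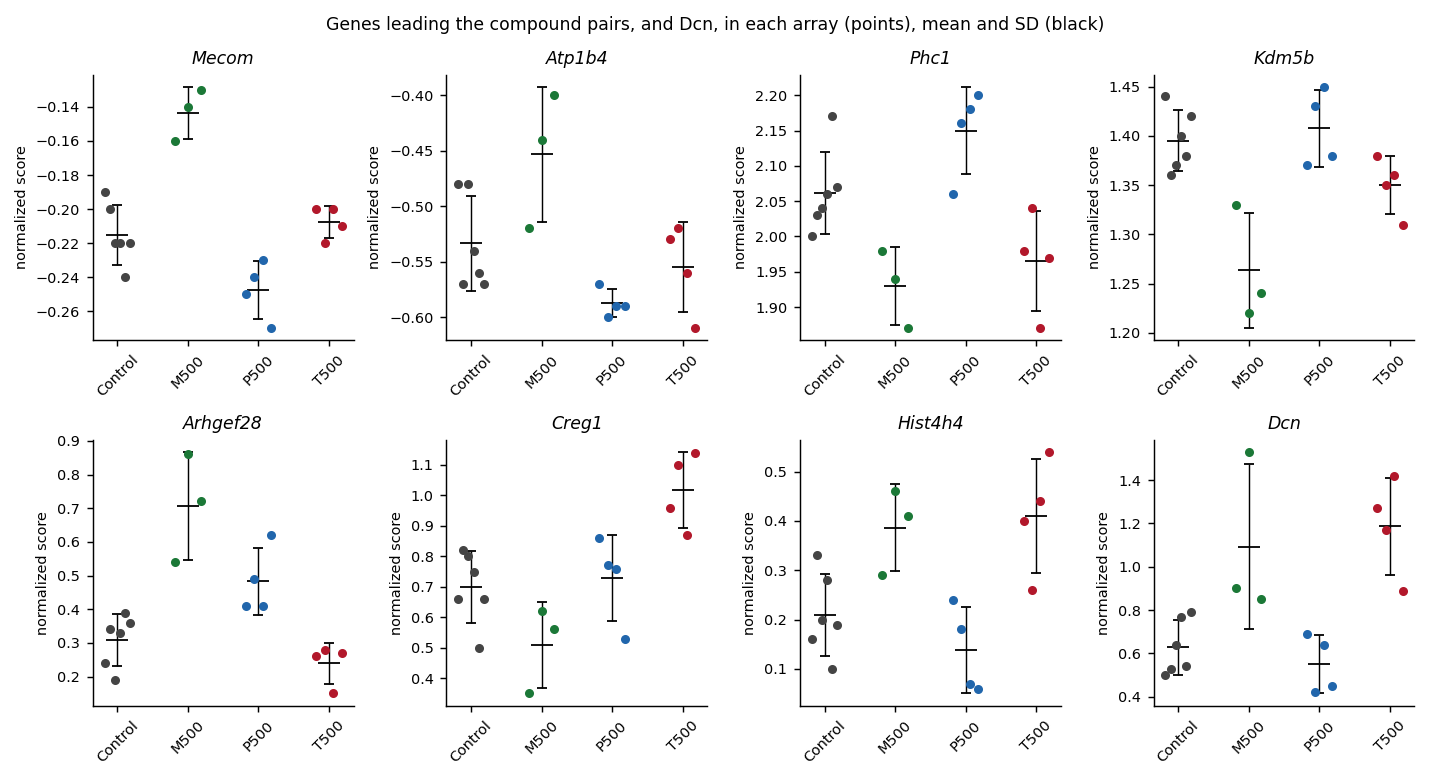
Normalized score (vertical axis, score units) of Dcn and of 7 genes that led a pair of compounds, in every array of Control, M500, P500 and T500; points are arrays, black lines the mean and SD. M500 and P500 do not overlap for Mecom, M500 and T500 do not overlap for Arhgef28 or Creg1, and P500 lies apart from T500 for Dcn and below the M500 arrays.

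Differences between the compounds are given here for 3 genes that led the pooled comparison. Acsl1 differed by 0.032 between M500 and P500 (95% interval -0.190 to 0.254), by 0.075 between M500 and T500 (-0.147 to 0.297) and by 0.043 between P500 and T500 (-0.162 to 0.249). Gdpd1 differed by 0.003, 0.060 and 0.057 in the same order, with intervals of -0.063 to 0.069, -0.006 to 0.126 and -0.004 to 0.118. Kcnd2 was lower in M500 than in T500 by -0.284 (95% interval -0.504 to -0.065, limma adjusted p = 0.7). These intervals are wide beside the differences from control, and the values do not show that the compounds act alike. Of the 118 probe sets, 4 had an unadjusted p under 0.05 in the F test among the compounds, a share that the choice of probe sets with 1 sign lowers.

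Families of housekeeping genes lay mostly above 0 in the pooled comparison, and less so without the arrays of high actin gap. They were chosen by name after the values were seen, and no member passed adjustment. Of 73 mitochondrial ribosomal proteins, 26 were higher and 1 lower at an unadjusted p under 0.05, with a median difference of 0.089; of 40 cytosolic ribosomal proteins 6 were higher and none lower (median 0.127); of 34 subunits of respiratory complex I 3 and none (0.136); and of 36 proteasome subunits 7 and 1 (0.058). Leaving out the 5 arrays of high gap gave medians of 0.019, -0.021, -0.016 and 0.029, and with the gap as a covariate 0.063, 0.064, 0.063 and 0.047. In P500, the group of highest mean gap among the exposed, the medians were 0.038, 0.008, -0.001 and 0.047. The part of RNA quality in these values was not tested. The mean of the complex I genes ran from 1.14 to 1.78 in the control arrays, 1.62 to 1.83 in M500, 1.32 to 1.70 in P500 and 1.68 to 1.92 in T500.

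**Figure D5:**
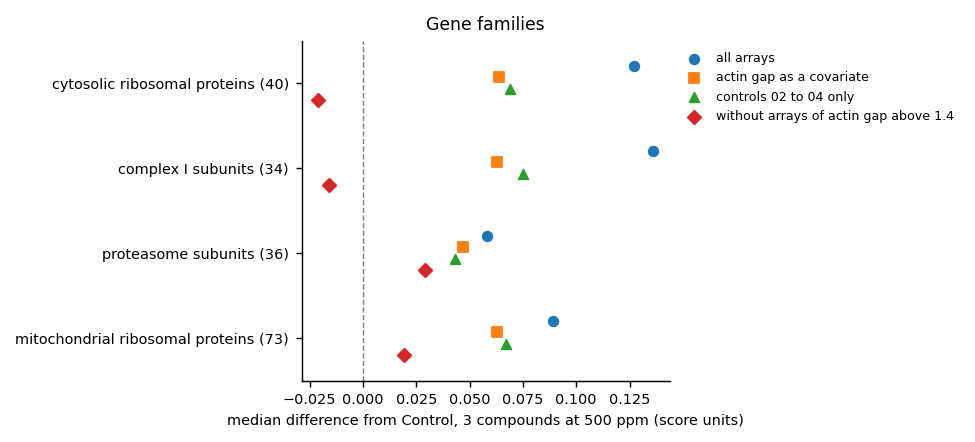
Median pooled difference from Control (horizontal axis, score units) of 4 gene families, with the number of genes measured in parentheses, over all arrays and under 3 alternatives. With the 5 arrays of high gap left out, the medians are -0.021 and -0.016 for cytosolic ribosomal proteins and complex I subunits, against 0.127 and 0.136 over all arrays.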

How the data were processed

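RNA of whole testis was hybridised to Affymetrix rat genome arrays, 1 rat per array. Preparation used TRI Reagent, DNase and RNeasy columns, then oligo-dT priming and biotin cRNA, per the labels' protocols. The authors deposited 1 score per probe set; summarization, normalization and log base are not given in the sources used here. Array medians of the deposited scores ran from -0.00914 to 0.0558. The 31 arrays were quantile normalized and fitted with 1 mean per group (R 4.3.3, limma 3.58.1, lmFit and eBayes). The pooled difference is the mean of M500, P500 and T500 minus Control, equal weight per compound. Benjamini-Hochberg adjustment ran over 31042 probe sets (57 control probe sets left out), and over all 3 pairs jointly; 0.05 was the threshold. The fit was tested on simulated data. Platform annotation gave 20826 probe sets 1 gene symbol, 436 several and 9780 none (14217 genes); 20758 matched RefSeq by gene ID.

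Genes named were the 10 of smallest p in each direction with 1 sign in all compounds, those without overlap, up to 3 per list (9 pathway and 13 cell type lists, probe set of highest mean), 3 per direction of a pair, and 10 always taken. Fdx1, Hsd17b4, Polb, Aasdhppt and the families were named after their values were seen. Members and lists were chosen with earlier results of these data known. The arrays correlated at 0.947 to 0.998, and no columns were identical. Alternatives were the deposited scores, only the 4 groups, array weights, a filter, the actin gap, animal series, lower-series controls, the replicate block, equal weight per array and each array left out.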

Additional observations from a re-analysis of the deposited data

Results flagged for a closer look

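Of 201 groups of 4 or 6 arrays checked over 67 named genes, 19 had an array far from the others by Dixon's test, where chance flags about 1 in 20. In Control 02 these were Pcmt1 (2.46, next 2.58), Bcat1 (-0.20, next -0.12), Psma6 (3.6, next 3.89), Cd163 (0.14, next -0.04) and Csf1r (0.25, next 0.12). In Control 06 they were Timm9 (0.66, next 0.78), Tspo (0.48, next 0.69) and Mrpl47 (0.70, next 0.95), and in Control 03 Zbtb7a (-0.16, next -0.11). Control 02 and 06 are the controls of high actin gap. In P500 04 they were Gdpd1 (1.02, next 0.89) and Kcnd2 (0.32, next 0.57), in P500 03 Taldo1 (0.58, next 0.62) and in P500 02 Alb (0.35, next 0.05). In T500 04 they were Star (0.91, next 0.51), Alb (1.66, next 0.23) and Csf1r (-0.00, next 0.07). The other T500 arrays were T500 01 for Gsr (-0.18, next -0.24), T500 02 for Uqcc4 (0.52, next 0.61) and T500 03 for Arhgef28 (0.15, next 0.26).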

How the results depend on the processing

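Of 1818 recomputed differences of named genes, 1755 kept direction and side of the threshold, 42 passed it under an alternative and 21 changed direction. With scores as deposited, Phc1 and Kdm5b (M500 minus P500) became 0.192 and 0.055. Cyp11a1 and Hsd17b3 became -0.025 and -0.020 with animal series as a block, -0.013 and -0.010 with Control 02 to 04 alone, and -0.037 and -0.005 with the replicate block, and Insl3 became -0.010 without arrays of actin gap above 1.4. Cyp51 became -0.000 with equal weight per array and -0.049 to 0.071 with an array left out, Lhcgr -0.016 to 0.041 and Por -0.050 to 0.009. The causes were not tested.

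Probe sets passing for pooled, M500, P500, T500, any difference and pairs, and those of the same way, were 0, 6, 0, 0, 0, 0 and 55 with scores as deposited; 0 for the first 6 and 60 with only the 4 groups; 290, 61, 17, 44, 32, 2 and 406 with array weights; 18, 231, 0, 0, 0, 0 and 277 with the actin gap; 1, 0, 0, 0, 0, 0 and 338 with Control 02 to 04 alone; and 2, 18, 198, 2, 367, 151 and 367 without arrays of high gap. Above the median score T500 gave 2 and the same way 73. No overlap was counted for 4 probe sets with deposited scores, 193 with Control 02 to 04 and 320 without arrays of high gap. With an array left out the ranges were 0 to 6, 0 to 156 (156 without M500 01), 0 to 0, 0 to 3, 0 to 5, 0 to 10 and 78 to 243. The replicate block gave 2 (Acsl1 and Aasdhppt), 1, 0, 1, 0, 0 and 528. Same-numbered arrays of different groups deviated together in 7 of 18 pairs (correlation above 0.1, median 0.037). Arrays of other numbers did so in 38 of 88 pairs (median 0.031). The values thus do not show that the numbers pair the rats, and 18 correlations from -0.71 to 0.48 cannot exclude it. The small groups, 3 to 6 arrays, limit what could be detected.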

Other observations

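The 118 probe sets with 1 sign and an unadjusted p under 0.05 in each compound held further genes with nearly equal differences, picked here after their values were seen. Psma6, an alpha subunit of the proteasome core, scored 3.89 or less in Control 02 and 06, 3.95 to 3.99 in the other controls and 3.95 to 4.15 at 500 ppm. Its difference was 0.170 (SE 0.041, limma adjusted p = 0.27), and 0.10 without the arrays of high actin gap. Mrps22 and Mrpl47, of the small and large mitochondrial ribosomal subunits, differed by 0.123 and 0.157, and by 0.085 and 0.092 without those arrays. Foxj1, the transcription factor of motile cilia and flagella, differed by -0.172 in M500, -0.169 in P500 and -0.184 in T500. It scored 0.96 to 1.17 in Control and 0.76 to 1.09 at 500 ppm, with 10 of 11 exposed arrays below the control mean, and its pooled difference of -0.175 (SE 0.056, limma adjusted p = 0.45) was -0.198 without the arrays of high actin gap.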
